A study of Mus musculus with 6 samples.

Results

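T-box genes encode transcription factors that share a DNA-binding domain, the T-box. The 8 genes described here are Tbx1, Tbx2, Tbx3, Tbx4, Tbx5, Tbx15, Tbx18 and Tbx20, taken by symbol from a deposited table of 23478 genes, and all 8 passed the filter on low counts. RNA had been sequenced from 6 libraries of cells sorted from E13.5 mouse trachea, 3 labelled muscle and 3 labelled epithelium. All 6 carried the same genotype, Bmp4 f/f with gamma SMA eGFP, and are labelled as controls. No Cre driver is named for them. Epithelial cells had been sorted by an antibody to Epcam, and muscle cells by the eGFP of the gamma smooth muscle actin reporter. Such sorting selects for these cells and does not show that a group holds no others. Nothing in the labels says whether the libraries of a group came from separate embryos or litters, so p-values measure only the spread between these samples.

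T-box factors bind a shared DNA motif and act as activators or repressors at the genes of patterning and differentiation. Tbx2 and Tbx3 act mainly as repressors, while Tbx4 and Tbx5 act mainly as activators. All of these are known from the mesenchyme around the lung and trachea, where Tbx4 and Tbx5 are needed for branching and for tracheal cartilage and muscle. Tbx1 is best known from the pharynx, where pharyngeal endoderm expresses it, and Tbx15, Tbx18 and Tbx20 from dermis and limb, from ureter and pericytes, and from heart.

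In these libraries Tbx2, Tbx3, Tbx4 and Tbx5 were higher in muscle, and Tbx1 was higher in epithelium. The changes ran from 3.80-fold for Tbx2 to 22.1-fold for Tbx5 toward muscle and to 15.4-fold for Tbx1 toward epithelium. Tbx15, Tbx18 and Tbx20 were low in both populations and did not pass the test. By edgeR's quasi-likelihood test at an adjusted p under 0.05, 5 of the 8 genes differed, against 10.7% of 19375 tested genes. Toward muscle there were 4, against 6.58% of tested genes, and toward epithelium 1, against 4.11%. The groups did not overlap for these 5 genes, as was the case for 26.9% of tested genes. The median log2 fold change of muscle over epithelium was 1.63 over the 8 genes and -0.10 over all tested genes. The 8 genes were chosen with earlier results of these data known, so these shares describe them and are no test of the family. Of the other 9 T-box genes, 0 passed.

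**Figure D1:**
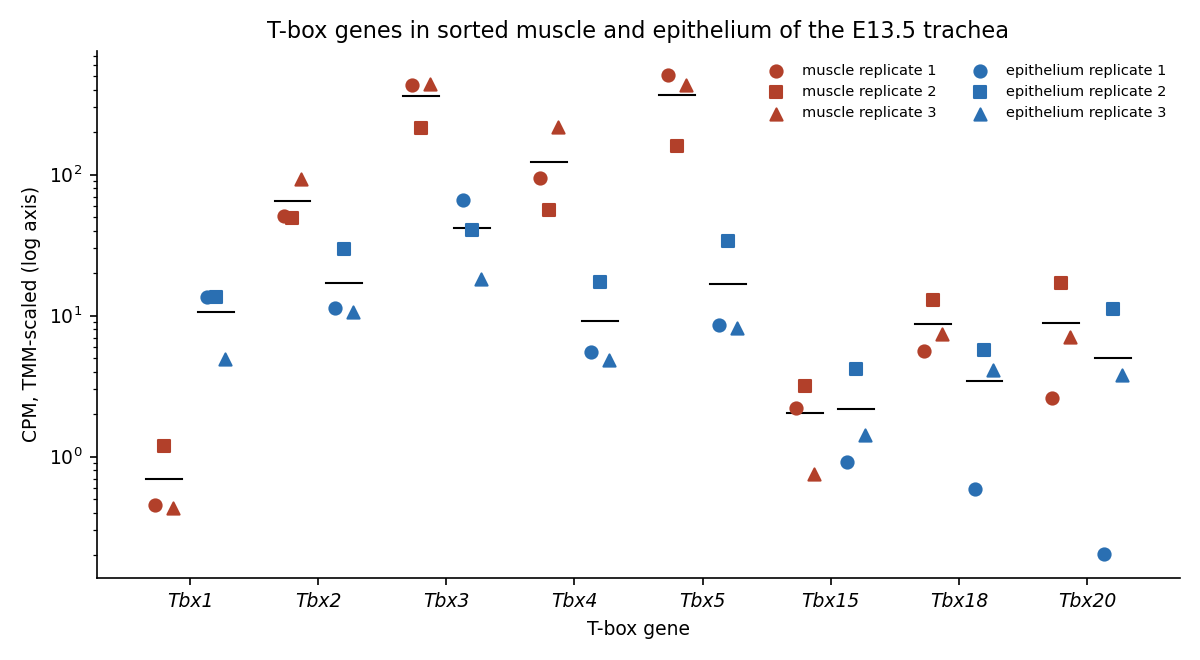
Level of each T-box gene in CPM (reads scaled to library size, log axis) in 3 muscle (red) and 3 epithelial (blue) libraries, with black lines at group means. Tbx2 to Tbx5 are higher in every muscle library than in any epithelial one, Tbx1 is the reverse, and the groups overlap for Tbx15, Tbx18 and Tbx20.

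Library totals ran from 11847432 to 54848820 counts, and 16979 to 22154 genes had at least 1 count. Smooth muscle markers were all higher in muscle (10 of 10) and epithelial markers all higher in epithelium (10 of 10), as the labels give the groups. The muscle library numbered 2 stood apart, with a summed smooth muscle marker level of 4137 CPM against 16900 and 17830. Skeletal muscle markers summed to 389 CPM in muscle replicate 1 and to at most 42.3 CPM in every other library (0 of 10 called), and their part in the T-box levels was not tested. Odorant and vomeronasal receptor genes were taken as mostly unused by either population, which was not tested gene by gene. Of 1449 such genes, 73.4% to 78.8% had counts in muscle replicate 2 and epithelium replicates 2 and 3. In the other libraries 2.90% to 17.4% of these genes had counts. Their counts are called background counts below, and they limit what can be read from genes of low level. In bulk libraries fewer expressing cells and less RNA per cell cannot be told apart.

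Tbx5, an activator of limb, heart and lung development, had 512, 161 and 436 CPM in muscle replicates 1 to 3 and 8.53, 33.9 and 8.15 CPM in epithelium replicates 1 to 3. Even the lowest muscle library exceeded the highest epithelial one. The log2 fold change was 4.47 ± 0.70 (SE, edgeR adjusted p = 0.00422, n = 3 libraries per group), the largest of the 8 genes. The table's header gives each library an identifier without saying what it marks. It may hold a calendar day (not an embryonic one), a reading that is uncertain. In 2 libraries of each group it was read as 16, called identifier 16 below. Within those the log2 fold change was 5.75 (edgeR adjusted p = 0.00016). With the background counts as a covariate it was 4.72, but the call was lost (adjusted p = 0.078).

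Tbx4, the close paralog of Tbx5 that marks hindlimb and lung mesenchyme, had 94.5, 56.5 and 219 CPM in the muscle libraries. In epithelium it had 5.50, 17.3 and 4.88 CPM. The groups did not overlap, although the muscle libraries themselves spanned a wide range. Its log2 fold change was 3.76 ± 0.66 (SE, edgeR adjusted p = 0.00715). The covariate for background counts ended this call too (adjusted p = 0.10), while within the libraries with identifier 16 the log2 fold change was 4.84 (adjusted p = 0.0021).

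Tbx3, a repressor known from limb, mammary gland and heart conduction tissue, had 430, 213 and 440 CPM in muscle. In epithelium it had 66.3, 40.7 and 18.3 CPM. All muscle libraries were above all epithelial ones, and the log2 fold change was 3.11 ± 0.50 (SE, edgeR adjusted p = 0.00458). It was called in each of the 19 alternative fits, among them that of the libraries with identifier 16 (3.29, adjusted p = 0.017).

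Tbx2, the paralog of Tbx3 and a repressor that keeps lung mesenchyme dividing, had 50.7, 49.6 and 94.0 CPM in muscle and 11.4, 29.5 and 10.6 CPM in epithelium. The gap between the groups was the narrowest of the 4, with epithelium replicate 2 nearest to the muscle libraries. The log2 fold change was 1.92 ± 0.45 (SE, edgeR adjusted p = 0.0268). The call was lost with scaling by library size only (1.56, adjusted p = 0.098) or by DESeq2 size factors (1.77, 0.056). It was also lost without muscle replicate 3 (adjusted p = 0.070), epithelium replicate 1 (0.051) or epithelium replicate 3 (0.11). Within the libraries with identifier 16 it was 2.65 (adjusted p = 0.0062).

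Tbx1, a regulator of pharyngeal arch and outflow tract development, had 13.5, 13.5 and 4.96 CPM in epithelium and 0.46, 1.2 and 0.43 CPM in muscle. These are 727, 202 and 132 counts against 12, 24 and 17 counts. Its log2 fold change was -3.94 ± 0.79 (SE, edgeR adjusted p = 0.0134), and epithelium replicate 3, the lowest of its group, was still above every muscle library. The call was lost with limma-voom (-4.10, adjusted p = 0.083). It was lost too without muscle replicate 1 (adjusted p = 0.054), muscle replicate 3 (0.052) or epithelium replicate 1 (0.051). Within the libraries with identifier 16 the log2 fold change was -4.45 (adjusted p = 0.015), and the other identifier, with 1 library per group, allowed no test for any gene. Markers of oesophageal epithelium, a neighbouring tissue that could share the Epcam gate, summed to 213 to 336 CPM in the epithelial libraries and 2.65 to 15.5 CPM in muscle, 3 of 7 of them higher in epithelium. Those 3 were Krt15, with 62.6, 52.4 and 19.0 CPM in epithelium (log2 fold change -8.15, edgeR adjusted p = 0.000901), Trp63 (-4.78, 0.00569) and Klf5 (-6.15, 0.000193). Klf5 alone supplied 149, 175 and 138 CPM of the sums in epithelium replicates 1 to 3. No gene of the list was shown here to be limited to oesophagus. Krt5 had 19.5, 0.33 and 0.53 CPM in epithelium replicates 1 to 3 and at most 0.66 CPM in muscle. Krt14 had 0.30, 6.88 and 0.94 CPM in epithelium and at most 1.30 CPM in muscle. Pax9 (22.9, 6.08 and 3.87 CPM) and Sox21 (9.98, 17.8 and 10.2 CPM) were higher in every epithelial library than in any muscle one. None of these genes passed the edgeR test. The part of such cells in the level of Tbx1 was not tested.

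**Figure D2:**
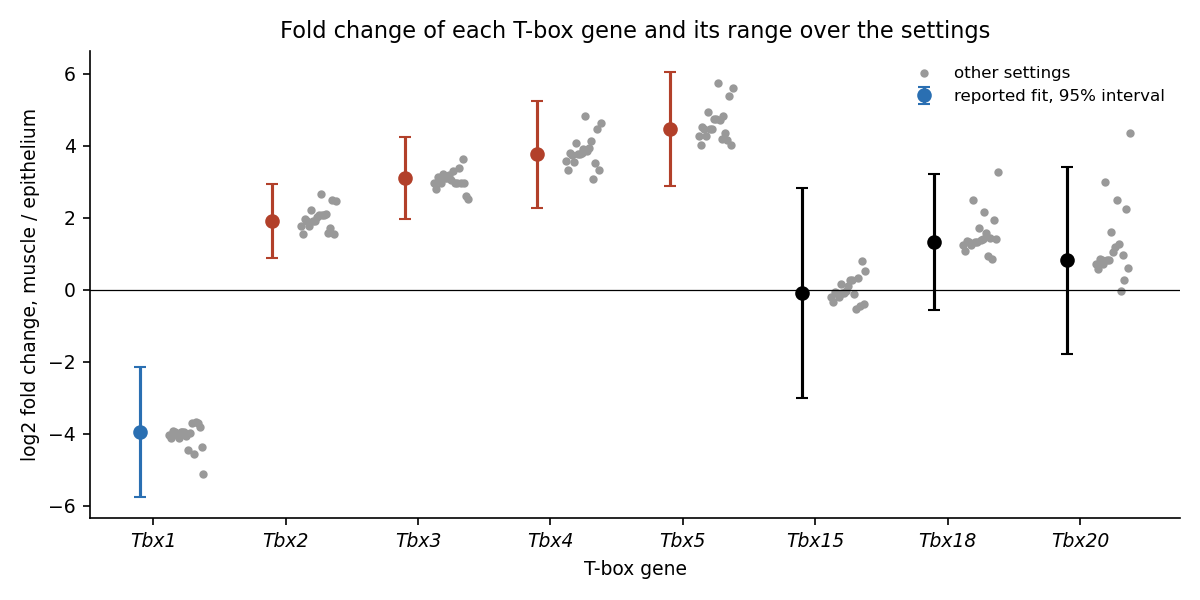
Log2 fold change of muscle over epithelium for each T-box gene with its 95% interval (bars), beside its value in 19 alternative fits (grey points). Red marks genes higher in muscle, blue the gene higher in epithelium and black those that did not pass the test. The grey points of Tbx2 to Tbx5 all lie above 0 and those of Tbx1 all below, while Tbx15 and Tbx20 have points on both sides.

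Of the genes that did not pass, Tbx18, which marks ureter mesenchyme, pericytes and epicardium, had 5.59, 13.0 and 7.43 CPM in muscle. In epithelium it had 0.59, 5.68 and 4.09 CPM. Only muscle replicate 1 and epithelium replicate 2 overlapped, by a small margin. The log2 fold change was 1.33 ± 0.83 (SE, edgeR adjusted p = 0.464), with a 95% interval from -0.55 to 3.21, so a sizeable difference is within reach of these data. With the background counts as a covariate it was 2.16 (adjusted p = 0.018). Without the 3 libraries richest in background counts, a choice made after seeing the data that leaves 1 epithelial library assumed to vary like the others, it was 3.26 (adjusted p = 0.035).

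Tbx20, a regulator of heart development, had 2.62, 17.0 and 7.05 CPM in muscle and 0.20, 11.2 and 3.79 CPM in epithelium. In both groups replicate 2 was highest and replicate 1 lowest, and the groups overlapped. The log2 fold change of 0.82 ± 1.15 (SE, edgeR adjusted p = 0.867) had a 95% interval from -1.77 to 3.42. It fell to -0.039 without muscle replicate 2. As for Tbx18, the call appeared with the covariate for background counts (2.49, adjusted p = 0.030) and without the 3 libraries richest in them (4.36, adjusted p = 0.040).

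Tbx15, known from skeletal muscle fibres, dermis and limb skeleton, had 2.20, 3.19 and 0.76 CPM in muscle and 0.91, 4.21 and 1.43 CPM in epithelium. The 2 populations spanned nearly the same range. Its log2 fold change was -0.086 ± 1.29 (SE, edgeR adjusted p = 0.990), with a 95% interval from -2.99 to 2.82 that leaves changes of either sign possible. No alternative fit called it.

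These low levels were set beside those of the receptor genes in the same library. The 99th percentile of the receptor genes was 3.25 CPM in the muscle library numbered 2, 5.55 and 2.12 CPM in the epithelial libraries numbered 2 and 3, and 0.113 to 0.38 CPM in the other 3 libraries. Tbx15 was under that level in all 3 libraries richest in background counts and above it in the other 3. Tbx18 and Tbx20 were above it in all 6 libraries. Tbx1 was above it in every epithelial library. In muscle replicate 2 it stood at percentile 85.4 of the receptor genes, so its 1.2 CPM there was no higher than that of many receptor genes.

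**Figure D3:**
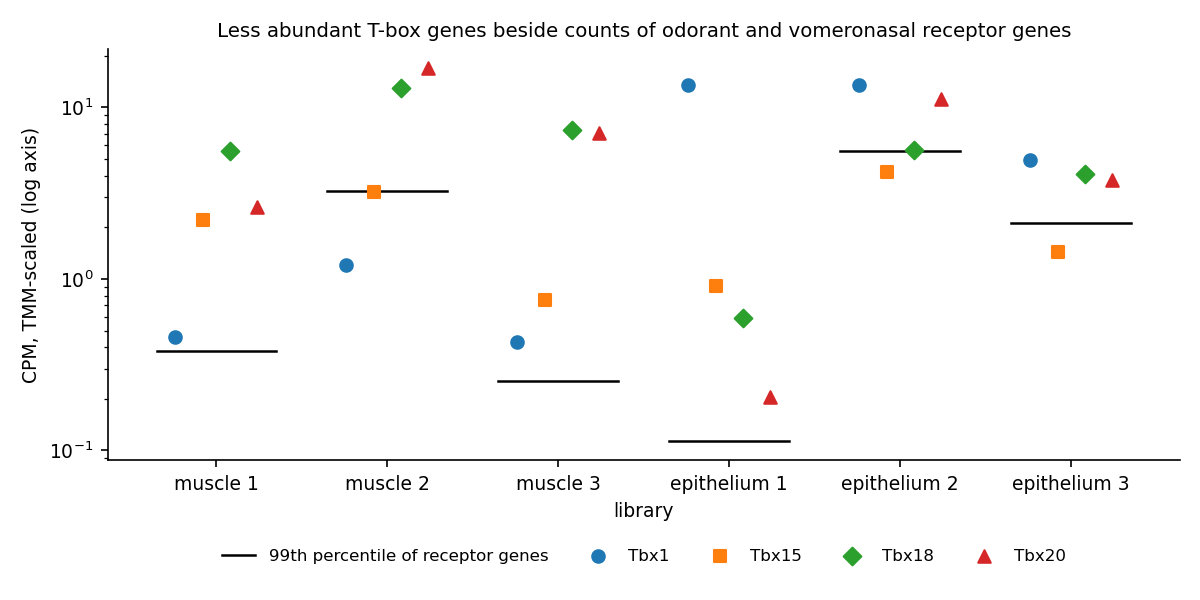
CPM (log axis) of Tbx1, Tbx15, Tbx18 and Tbx20 in each library, with a black line at the 99th percentile of 1449 odorant and vomeronasal receptor genes. The line is highest in epithelium replicate 2, at 5.55 CPM, and Tbx15 lies under it in 3 libraries.

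Levels of different genes were compared per kilobase of annotated exon (CPM per kb, GENCODE M21). In muscle the order was Tbx5 (93.8 ± 46.9 CPM per kb, SD, n = 3), Tbx3 (69.4 ± 24.6), Tbx4 (36.2 ± 24.9) and Tbx2 (17.9 ± 6.98). Neighbours in that order lay within each other's spread over libraries. Far below stood Tbx18 (1.85 ± 0.822), Tbx20 (0.93 ± 0.771), Tbx15 (0.576 ± 0.344) and Tbx1 (0.26 ± 0.163). The lowest library of Tbx2, at 13.7 CPM per kb, was above the highest of Tbx18, at 2.77.

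In epithelium the order per kilobase was Tbx3 (8.03 ± 4.62 CPM per kb), Tbx2 (4.73 ± 2.96), Tbx5 (4.28 ± 3.75), Tbx1 (3.99 ± 1.85) and Tbx4 (2.71 ± 2.06), all overlapping with their neighbours. Tbx18 (0.739 ± 0.556), Tbx15 (0.612 ± 0.498) and Tbx20 (0.528 ± 0.584) came last. The summed level of the 8 genes was 257, 118 and 288 CPM per kb in the muscle libraries and 25.1, 38.3 and 13.5 in the epithelial ones. Tbx2 to Tbx5 made up 95% to 99.1% of that sum in muscle and 73.8% to 78.3% in epithelium. Tbx1 contributed 13.2% to 20.1% of the sum in epithelium and at most 0.38% in muscle. Tbx5 held 34.7% to 50.6% of the sum in muscle and 8.61% to 22.5% in epithelium, whereas Tbx2 held 5.45% to 11.6% in muscle and 12.5% to 21.6% in epithelium.

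**Figure D4:**
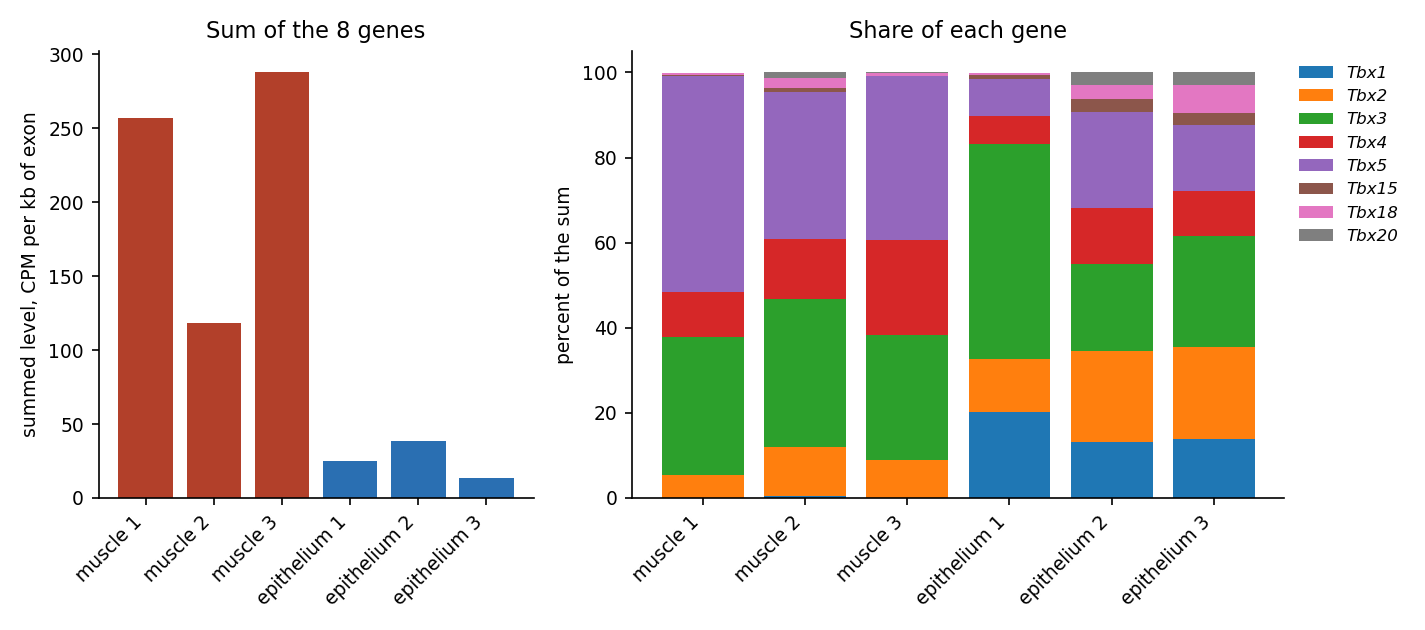
Left, summed level of the 8 T-box genes in CPM per kilobase of exon in each library (red muscle, blue epithelium). Right, percent of that sum held by each gene, where Tbx5 and Tbx3 hold most of every muscle bar and Tbx1 holds 13.2% to 20.1% of the epithelial bars.

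The level of the muscle-rich genes in epithelium differed among them. Epithelial means were 26.5% of the muscle mean for Tbx2, 11.6% for Tbx3, 7.49% for Tbx4 and 4.56% for Tbx5, and differences among these were not tested. Smooth muscle markers in the same epithelial libraries had a median of 0.932%, 1.99% and 0.723% of their muscle mean. Each of the 4 genes was above that median in each epithelial library, the lowest being Tbx5 with 2.31%, 9.18% and 2.20%. Single markers spread widely around the median. Smtn averaged 70.6 CPM in epithelium and 469 CPM in muscle, and Acta2 7.50 and 5222 CPM. A level above the median therefore does not place a gene above every marker. Cartilage markers, which mark a mesenchymal lineage outside the smooth muscle, summed to 286 to 673 CPM in epithelium and 1005 to 1687 CPM in muscle. Most of each epithelial sum came from Sox9 (100, 187 and 55.5 CPM) and Col2a1 (294, 223 and 154 CPM), while Acan had 0, 9.09 and 1.62 CPM. The part of cartilage cells in these T-box levels was not tested. Tbx1 in the muscle libraries stood at 4.28%, 11.2% and 4.03% of its epithelial mean, where epithelial markers had a median of 0.235%, 0.772% and 0.579%. These Tbx1 values rest on only 12, 24 and 17 counts. In muscle replicate 2 Tbx1 was at percentile 85.4 of the receptor genes, so its share there is not told apart from background counts.

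Muscle replicate 2 had lower levels of the smooth muscle markers than the other muscle libraries, and the T-box genes followed to different degrees. As a percent of the mean of muscle replicates 1 and 3, its level was 34% for Tbx5, 36.1% for Tbx4, 49.0% for Tbx3 and 68.6% for Tbx2. The median was 19.4% over the smooth muscle markers (12.7% to 44.5%) and 69.5% over all well expressed genes. Tbx18 (199%), Tbx15 (216%), Tbx1 (271%) and Tbx20 (352%) were instead highest in that library among the muscle ones. Of the muscle-rich genes, Tbx2 thus lay near the median of well expressed genes, Tbx4 and Tbx5 lay within the range of the smooth muscle markers, and Tbx3 lay between that range and that median.

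Heart muscle markers were also followed, since Tbx5 and Tbx20 are expressed in heart. They summed to 163 to 198 CPM in muscle and 22.6 to 67.1 CPM in epithelium, and 3 of 10 were higher in muscle by edgeR. Myl4, an atrial myosin light chain gene, averaged 49.0 CPM in muscle and 1.77 CPM in epithelium (log2 fold change 4.85 ± 0.71, adjusted p = 0.00289) and was called in all 19 alternative fits. Myl7 (3.15 ± 0.76, adjusted p = 0.0298) and Tnnt2 (4.16 ± 1.11, adjusted p = 0.0454) also passed, though for each 4 of the 6 fits that left out a library lost the call. The defining genes Myh6 and Myh7 did not pass. Mesothelial Wt1 had 1.67, 9.44 and 1.95 CPM in muscle and 0.24, 4.14 and 4.62 CPM in epithelium, and 0 of 8 mesothelial markers were higher in muscle. The mesothelial list summed to 178 to 418 CPM in epithelium and 4.56 to 24.3 CPM in muscle. Krt19, a keratin gene that epithelia also express, supplied most of each epithelial sum, with 154, 391 and 222 CPM. It was the 1 called toward epithelium (-6.98, edgeR adjusted p = 9.61e-05). The part of heart and mesothelial cells in the T-box levels was not tested.

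The 5 genes that passed lie at 3 places in the genome (mm10, positions from GENCODE M21 on the same assembly). Tbx2 (chr11:85832551-85841948) and Tbx4 (chr11:85886422-85916097) are neighbours on the plus strand with 44.4 kb between their RefSeq spans. Tbx3 (chr5:119670669-119684724) and Tbx5 (chr5:119832668-119885219) are likewise neighbours, 112 kb apart. Tbx1 (chr16:18580979-18590671) lies on the minus strand, with no other T-box gene beside it. The nearest genes of the count table, up to 2 on each side of each of the 8 members, numbered 25 besides the members themselves. Of 24 tested, 2 passed toward muscle and 0 toward epithelium, and their median log2 fold change was -0.27. Beside the 6.58% and 4.11% of all tested genes that passed in those directions, these counts are no result about the neighbours.

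The neighbours that passed were AW549542 and Sept7. AW549542, which lies 90.2 kb before Tbx3, had 29.1 CPM in muscle and 3.51 CPM in epithelium on average, a log2 fold change of 3.09 ± 0.69 (edgeR adjusted p = 0.0207) that did not pass without muscle replicate 3 or epithelium replicate 3 (adjusted p up to 0.064). Sept7, a septin gene 478 kb from Tbx20, was also higher in muscle (1.54 ± 0.24 on the log2 scale, edgeR adjusted p = 0.0038). Rbm19, the next coding gene after Tbx5, had 36.6 and 36.1 CPM in muscle and epithelium, and Brip1, beyond Tbx4, had 16.4 and 22.3 CPM. Neither passed (edgeR adjusted p = 0.991 and 0.579).

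No 50-base stretch of any of the 8 genes' annotated transcripts occurs in a transcript of another T-box gene. Reads of that length would therefore not be shared within the family. The antisense gene Tbx3os1 overlaps Tbx3, with 1.01% of the 50-base stretches of Tbx3 in common. For Tbx18, 18.3% of the stretches occur in other transcripts, nearly all in D030062O11Rik on the opposite strand. Such libraries keep no strand in standard use, so reads from these overlaps cannot be assigned.

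Of the members, 4 had entries in the RefSeq table of promoter windows (GRCm38.p6, from 250 bases before to 50 after a transcript start). The windows of Tbx1 and Tbx4 are shown because these genes went in opposite directions. The window of Tbx1, on the minus strand, covers its first annotated start, and that of Tbx4, on the plus strand, covers a start 10.4 kb downstream of its first. Both are written 5′ to 3′, with the T-box core AGGTGT in capitals.
Tbx1, chr16:18590622-18590921: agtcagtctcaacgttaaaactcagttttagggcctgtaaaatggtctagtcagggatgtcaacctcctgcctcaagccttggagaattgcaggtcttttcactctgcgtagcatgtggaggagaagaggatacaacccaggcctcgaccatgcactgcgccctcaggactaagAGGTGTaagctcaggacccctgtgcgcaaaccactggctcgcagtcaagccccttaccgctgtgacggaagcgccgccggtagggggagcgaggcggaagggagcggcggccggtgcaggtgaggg
Tbx4, chr11:85896515-85896814: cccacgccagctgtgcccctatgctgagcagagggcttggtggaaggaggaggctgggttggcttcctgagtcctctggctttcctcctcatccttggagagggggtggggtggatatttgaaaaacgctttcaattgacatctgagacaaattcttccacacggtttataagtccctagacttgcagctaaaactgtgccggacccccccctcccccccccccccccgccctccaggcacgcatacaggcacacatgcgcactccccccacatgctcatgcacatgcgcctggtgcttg
AGGTGT, searched on both strands (ACACCT on the other), occurred once in the Tbx1 window, 76 bases before the start, and in no other of the 5 member windows. It was present in 13.7% of all 32851 promoter windows of the same length. The Gli core CCACCCA, searched likewise (TGGGTGG on the other strand), occurred in none of the 5 and in 9.3% of all windows. Neither search says whether a factor binds there.

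The rest of the T-box family was accounted for as well. None of the other 9 genes (T, Tbr1, Eomes, Tbx6, Tbx10, Tbx19, Tbx21, Tbx22 and Mga) passed the edgeR test, and 0 of 9 had an unadjusted p under 0.05. Mga, a large factor that joins a T-box to a Myc-like domain, was the one with a substantial level. It had 122, 75.3 and 116 CPM in muscle and 122, 103 and 102 CPM in epithelium, so the groups overlapped. Its log2 fold change was -0.060 ± 0.26 (adjusted p = 0.959), with a 95% interval from -0.64 to 0.52. The other 8 were at most 3.81 CPM in any library.

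Genes that work with T-box proteins were then examined in 3 lists. Of 19 tested genes for cofactors and inhibitors, 3 passed toward muscle (6.58% of all tested genes did) and 4 toward epithelium (4.11%), with a median log2 fold change of 0.15. Ripply3, whose protein binds T-box factors, Tbx1 among them, and turns them to repression, had 72.1, 50.1 and 74.5 CPM in epithelium and 1.52, 1.80 and 1.06 CPM in muscle. It lay on the same side as Tbx1 without overlap, with a log2 fold change of -5.50 ± 0.34 (edgeR adjusted p = 9.61e-05), and was called in each of the 19 alternative fits. Eya1, a coactivator that acts in pharyngeal development, was also higher in epithelium (-2.79 ± 0.47, adjusted p = 0.00602). Isl1, a homeobox gene of heart and pharyngeal progenitors (-2.03, adjusted p = 0.0313), and the corepressor gene Tle3 (-1.2, adjusted p = 0.0261) were too, but each lost its call in 3 of the 6 fits that left out a library.

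Osr1 and Mef2c were among those toward muscle in that list. Osr1, which acts with Tbx5 in heart and foregut mesenchyme, had 544, 415 and 577 CPM in muscle and 31.4, 92.2 and 32.9 CPM in epithelium (3.30 ± 0.46, edgeR adjusted p = 0.00233). It was called in all 19 alternative fits. Mef2c, a muscle transcription factor, had 3.62 ± 0.79 (adjusted p = 0.0197), and its call was lost without any one of the 3 muscle libraries and without epithelium replicate 3 (adjusted p up to 0.12). The heart cofactor genes Gata4, Hand2 and Nkx2-5 did not pass, at log2 fold changes of 1.31, 2.11 and -3.21 (adjusted p = 0.602, 0.284 and 0.372).

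Among 21 tested genes known from other tissues to respond to T-box factors, 6 passed toward muscle and 1 toward epithelium (6.58% and 4.11% over all tested genes), with a median log2 fold change of 1.66. The list holds both induced and repressed genes, and its members were not shown to respond here. Shisa3 and Wisp1 (Ccn4), known from work on Tbx2 in lung mesenchyme, had log2 fold changes of 4.46 ± 0.82 and 4.25 ± 0.52 (edgeR adjusted p = 0.00905 and 0.00134). Both were higher in muscle. Tbx2, described above as mainly a repressor, was higher there too, and whether it raises or lowers them was not tested. Shisa3 lost its call without epithelium replicate 3 (adjusted p = 0.076). Wisp1 had 157, 236 and 197 CPM in muscle and 5.73, 19.6 and 6.16 CPM in epithelium, without overlap.

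Also toward muscle was Gja5, a connexin gene induced by Tbx5 in heart (3.72, edgeR adjusted p = 0.0154, 0.061 without epithelium replicate 3, and 0.052 with scaling by library size only). Cdh1, the E-cadherin gene that Tbx2 and Tbx3 can repress, was the one higher in epithelium, and it also defines the epithelial fraction (-7.61, adjusted p = 0.000117). Fgf10, a ligand gene downstream of Tbx4 and Tbx5 in lung mesenchyme, had 8.89, 18.9 and 8.16 CPM in muscle and 0.19, 8.89 and 4.02 CPM in epithelium. It did not pass (1.47 ± 1.02, adjusted p = 0.547). Wnt2, another such gene, had 17.2, 7.04 and 10.6 CPM against 1.88, 2.54 and 3.64 CPM. The groups did not overlap, and it fell just short (2.11 ± 0.58, edgeR adjusted p = 0.0502). Of the other 19 fits, 7 called Wnt2, and adjusted p spanned 0.0031 to 0.39. The cell cycle inhibitor genes Cdkn1a and Cdkn1b, which Tbx2 and Tbx3 repress in lung, did not pass (-0.60 and -0.30, adjusted p = 0.680 and 0.892).

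Of 21 genes for signals upstream of T-box genes, 6 passed toward muscle, beside 6.58% of all tested genes, and 1 toward epithelium, beside 4.11%, with a median log2 fold change of 0.58. The Hedgehog effector genes Gli2 (3.27 ± 0.46, edgeR adjusted p = 0.00258) and Gli1 (3.16 ± 0.53, adjusted p = 0.0057) were higher in muscle. So was Aldh1a2, which makes retinoic acid (3.01 ± 0.39, adjusted p = 0.00175), and all 3 were called in each of the 19 alternative fits. Tgfbr2 (1.42 ± 0.26, adjusted p = 0.00802) was called except without epithelium replicate 3. Fgfr2, the receptor for Fgf10, was higher in epithelium, at 467, 349 and 296 CPM against 43.9, 49.6 and 79.4 CPM (-2.69 ± 0.32, adjusted p = 0.00119). Shh, the Hedgehog ligand of the airway epithelium, was at 0 counts in muscle replicates 1 and 3 and at 2.00 CPM in replicate 2, against 40.6, 26.4 and 16.4 CPM in epithelium. It did not pass (edgeR adjusted p = 0.0514), but it did in 4 of the 19 alternative fits, among them the one without muscle replicate 2, the only muscle library with counts (adjusted p = 1e-04).

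**Figure D5:**
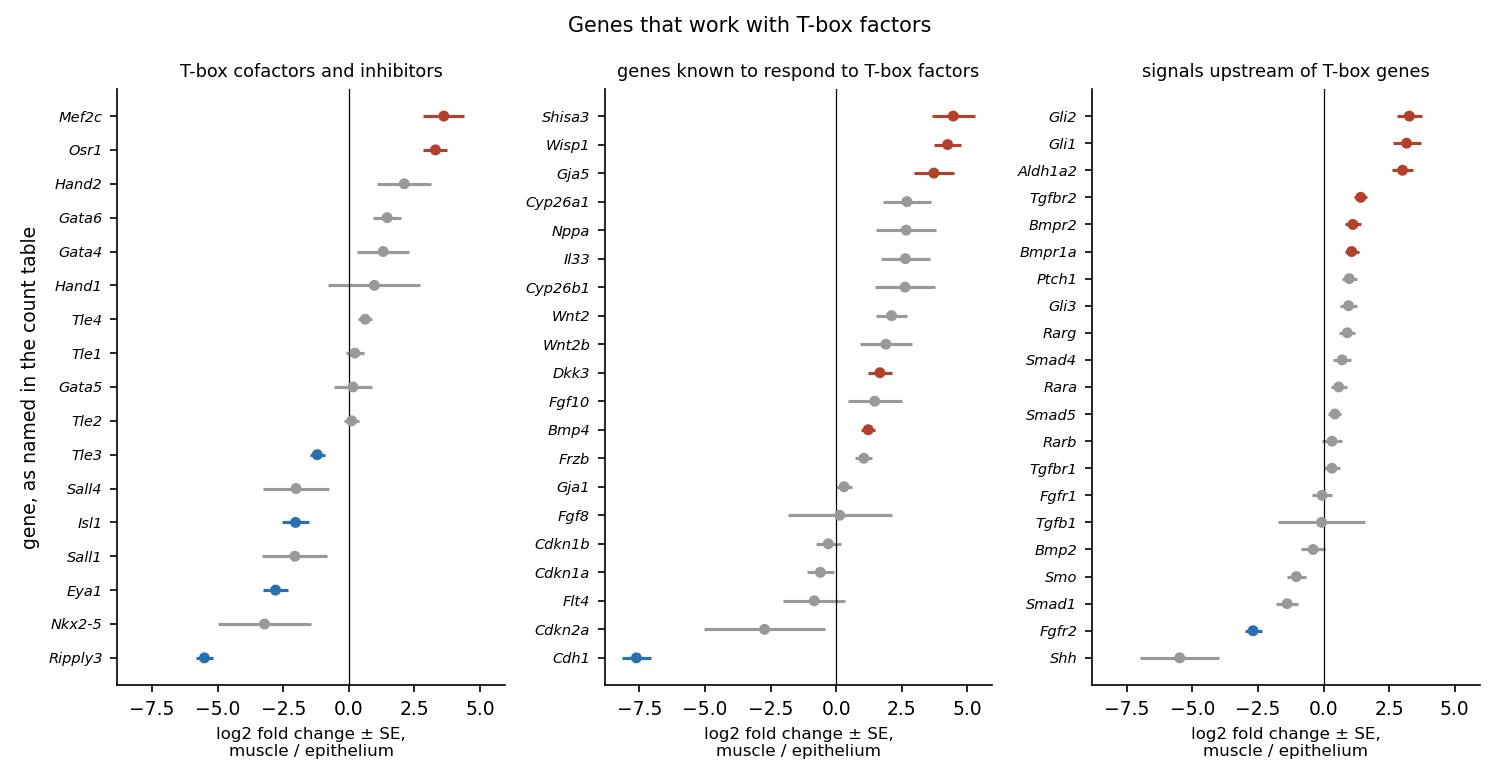
Log2 fold change of muscle over epithelium (± SE) for tested genes of 3 lists around T-box factors (a few are not drawn), with red for genes higher in muscle, blue for those higher in epithelium and grey for those that did not pass. Ripply3, at -5.50, is the lowest of the cofactor list, and Gli2, at 3.27, the highest of the upstream list.

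Genes whose pattern over the 6 libraries was nearest to each member's were found by the Euclidean distance between centred log2 CPM profiles, among 12738 genes whose mean log2 CPM reached 2. Nearest to Tbx5 were Srpx (0.442), Ddr2 (0.66) and Chrm2 (0.68), the last the gene of a muscarinic receptor of airway muscle. Tbx4 had Gas1 (0.622), Fxyd7 (0.811) and Flnc (0.896), and Tbx3 had Prrx2 (0.599), Fhl2 (0.791) and Adamts18 (0.808). For Tbx2 they were Dnm1 (0.413), Meg3 (0.493) and Ptges3l (0.585). No member was among the 3 genes nearest to another.

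Among the genes nearest to Tbx1 were the Wnt receptor gene Lgr5 (1.23) and 1700019G17Rik (1.23). For the genes that did not pass, the nearest were Lin7a (0.263) for Tbx18, Pnma2 (0.528) for Tbx15 and Grm3 (0.751) for Tbx20, and none of these 3 differed by the edgeR test (adjusted p = 0.282, 0.990 and 0.836). With 6 libraries in 2 groups, such likeness is a description that mostly reflects the group difference and the libraries' depth and background.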

How the data were processed

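RNA had been sequenced from 6 libraries of sorted tracheal cells, made with a SMART-Seq kit and Nextera XT per the labels' protocols. The authors deposited 1 table of raw counts, in whole numbers, by gene symbol. The submitters' processing notes name Trim Galore, Bowtie2, Cufflinks, DESeq and the build mm10; the counting program and annotation are not given in the sources used here. Groups and replicate numbers were taken from titles.

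Counts were filtered with filterByExpr, scaled by TMM and compared in edgeR 4.0.16 (R 4.3.3) by a robust quasi-likelihood test, two-sided, with Benjamini-Hochberg adjustment over 19375 genes at 0.05. CPM uses TMM-scaled library sizes. SE was derived from the test statistic. At 3 against 3 libraries, exact permutation p-values of single values cannot go under 0.1. Alternatives used DESeq2 1.42.0, limma 3.58.1 voom, other scalings and filters, header identifiers, background counts and left-out libraries. Counting error in reads without molecular identifiers is understated.

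The members and gene lists were chosen with earlier results of these data known. All members were named. From each of the 3 T-box lists, up to 4 genes per direction past the threshold, without overlap and at a mean log2 CPM of 2 or more, were named by rule. Fgf10, Wnt2, Shh, Cdkn1a, Cdkn1b, Gata4, Hand2, Nkx2-5, Rbm19 and Brip1 were added after their values were seen. A few genes that these rules chose are not reported here. 2 listed genes were matched through RefSeq synonyms. Of the remaining marker lists, skeletal muscle (0 of 10 called by edgeR, 2 at an unadjusted p under 0.05), endothelial (0 of 8, 1), immune (0 of 8, 0) and erythroid (0 of 4, 0) lists had no called gene. Of 11 cartilage markers 4 were higher in muscle, and of 9 neural and glial markers 1 was higher in epithelium.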

Additional observations from a re-analysis of the deposited data

How the results depend on the processing

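Each result was refitted in 19 other ways, 1 of them added after seeing the data. All 5 called genes kept their direction in all 19 fits. Tbx3 passed in 19, Tbx5 in 18, Tbx4 in 17, Tbx1 in 14 and Tbx2 in 12. The count of called genes, 2071, became 3531 with the Wald test of DESeq2, 983 at an adjusted p under 0.01 and 3178 with the header identifier as a term, and ranged from 1169 (without epithelium replicate 3) to 2573 over the fits that left out 1 library; it was 1323 without muscle replicate 1. Genes of the 8 higher in muscle numbered 3 to 4 over those fits, and genes higher in epithelium 0 to 1. The latter count was 0 with limma-voom and 0 at an adjusted p under 0.01. With the 3 libraries richest in background counts left out, 6 of the 8 were higher in muscle. The sign of Tbx15 changed with limma-voom (0.17), the header identifier as a term (0.094), identifier 16 only (0.26), background counts as a covariate (0.27) and the 3 libraries left out (0.51), and ranged from -0.54 to 0.81 over the fits without 1 library. Tbx20 ranged from -0.039 to 2.24 over those. The causes were not tested.

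The replicate numbers were not taken to pair the libraries, since deviations from the group mean correlated at 0.59, 0.73 and -0.57 for the numbers 1 to 3. Both libraries numbered 2, 1 of those numbered 1 and 0 of those numbered 3 correlated best with their own number. With the number as a block, 2 of the 8 genes were higher in muscle, Tbx3 and Tbx5; Tbx4 had 3.80 (adjusted p = 0.051), Tbx2 2.02 (0.067) and Gja5 4.21 (0.055). Over all tested genes the median fold change (log2) moved from -0.095 to -0.33 with library size only and to -0.20 with DESeq2 size factors. Background counts limit low values: the 99th percentile of receptor genes reached 5.55 CPM, Tbx15 lay under it in 3 libraries, and Tbx1 in muscle rested on 12, 24 and 17 counts.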
